A study of Mus musculus with 7 samples.

Results

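Hmox1, Srxn1, Txnrd1, Cryab, Hspa5 and Atf3 were followed as 6 genes of the oxidative, chaperone and integrated stress responses. They are 6 of the 3389 genes listed in the authors' deposited table, and they were chosen by hand with their log2 fold changes and adjusted p in it known. They comprise 3 targets of the transcription factor NRF2, 1 small heat shock protein, 1 chaperone of the endoplasmic reticulum (ER) and 1 stress-induced transcription factor. Their fold changes are therefore given as a description, and no test of them is offered. The samples were neural stem cells grown from the mouse subventricular zone (SVZ), a neurogenic region beside the lateral ventricles, in medium with B27, EGF and FGF-2. The first group, shKAP1, held 4 samples that received short hairpin RNA against KAP1 by nucleofection, and the second held 3 control samples. The control libraries are named 1, 2 and 4 but titled 1 to 3, and the sources used here do not state whether another control library entered the authors' fit, and so the fold changes and errors below. Nucleofection is described in the labels of both groups, but the hairpin of the controls, the mouse strain and age and the time after nucleofection are not named. No label states that samples are from different cultures or mice, so the adjusted p measures only the spread between these samples, which may be technical. KAP1, encoded by Trim28, is a transcriptional corepressor tethered to DNA by KRAB zinc finger proteins, and the comparison asks which transcripts differ when it is reduced.

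Cells answer different kinds of damage with different transcription factors. NRF2 is held by KEAP1 and degraded until oxidants or electrophiles modify KEAP1, after which it binds antioxidant response elements with a small MAF partner and drives genes of glutathione and thioredoxin metabolism, NADPH supply and iron handling. Unfolded proteins in the cytosol free the factor HSF1, which drives heat shock genes, whereas unfolded proteins in the ER engage the sensors PERK, IRE1 and ATF6, which raise ER chaperones. PERK and its relatives GCN2, PKR and HRI also phosphorylate the initiation factor eIF2 alpha, and this integrated stress response favours translation of ATF4, whose targets supply amino acids and feed back on the response. In neural stem cells these pathways are known to bear on quiescence, proliferation and differentiation.

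Short stretches of reference sequence match elements that such factors are known to bind. RefSeq promoter windows of GRCm38.p6, which run from 250 bases before to 50 bases after a gene's start, matched 4 of the 6 genes by symbol (Srxn1, Txnrd1, Hspa5 and Atf3, with 6 windows). They are shown because Srxn1 and Txnrd1 hold a match to the same NRF2 element and stood on opposite sides of the comparison, and because Hspa5 holds a match to the element of the ER stress factors. Capitals mark the match, and each sequence is printed 5′ to 3′ on the strand of the gene.
Srxn1, chr2:152105542-152105570, plus strand: gcagtgggcaGCTAGGTCAgagtgagaca
Txnrd1, chr10:82859104-82859132, plus strand: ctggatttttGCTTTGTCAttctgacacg
Hspa5, chr2:34772015-34772053, plus strand: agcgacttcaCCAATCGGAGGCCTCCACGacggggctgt
Atf3, chr1:191183326-191183351, minus strand: taatagcattACGTCAgcctgggatt

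The Srxn1 and Txnrd1 capitals match the core of the antioxidant response element, TGACNNNGC, read on the opposite strand. The match begins at base 29 after the start in Srxn1 and at base -92 in 1 of the 3 Txnrd1 windows. The Hspa5 capitals match the ER stress element, CCAAT and CCACG separated by 9 bases, and begin at base -65. Both strands were searched, and the NRF2 core occurs in 12.4% of all 32851 windows of this length, against 0.119% for the ER stress element. The full cyclic AMP response element TGACGTCA (1.79% of windows), the heat shock element GAANNTTC (7.86%) and the C/EBP-ATF element TGATGNAAT (0.965%) matched none of the 6 windows. The Atf3 capitals are the 6-base core ACGTCA of the cyclic AMP response element, which overlaps the full element and was searched after the data were seen. The match begins at base -8 in Atf3. This core occurs in 7.51% of windows and also in Hspa5, at base -157 on the opposite strand. The Txnrd1 and Atf3 matches lie at starts inside the annotated genes, downstream of the outermost starts at 82833951 and 191218039. Use of these inner starts was not tested. A match describes the letters only, and no binding was measured.

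Each line of the authors' deposited table holds, for 1 gene, the normalized count averaged over samples, the log2 fold change, its standard error (SE) and an adjusted p from DESeq2. Values of single samples and library totals were not part of it, so the SE, printed after ±, carries the replicate error. All log2 fold changes below are shKAP1 over control, with negative values read as lower in shKAP1 because Trim28, the targeted gene, is negative at -1.17 ± 0.05 (44.5% of the control level) in the authors' deposited table. The table lists only genes with an adjusted p under 0.05. These make up 26.3% of the 12905 genes tested, with 12.6% of tested genes higher and 13.7% lower in shKAP1. Stricter limits keep 17.7% of tested genes at an adjusted p under 0.01 and 7.21% at a Bonferroni limit. Further limits could be applied to listed genes only, since the values of the others are unknown. Of tested genes, 4.89% were listed with a 95% interval beyond 1.2-fold and 0.635% were listed at 2-fold or more. Another 25.7% is the share listed with a mean normalized count of at least 100, which is 3318 of the 3389 listed genes. All 6 genes are listed because they were chosen from the table, so nothing is read from the share of them listed.

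Of 13 neural stem cell markers, 4 were listed (30.8%, against 26.3% of tested genes), namely Vim, Fabp7, Slc1a3 and Nes. All 4 were higher, with mean normalized counts of 96600 to 193157 in the authors' deposited table, and 9 were not listed. Other markers had counts in this range, with 116602 for the astrocyte marker Aldh1l1 and 107053 for the oligodendrocyte lineage marker Olig1. Listing marks a difference between the groups, so these markers do not settle the cell type. None of 8 microglia and macrophage markers and none of 6 endothelial markers was listed. Of 8 neuroblast markers 2 were lower (25%), and of 7 astrocyte markers 1 was higher (14.3%). For a gene outside the table the level is unknown, since it may have missed the threshold or may not have been tested. In bulk RNA, more cells of a type and more RNA per cell cannot be told apart, and this holds for every value below.

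Hmox1, Srxn1, Cryab and Atf3 were higher in shKAP1 by 1.66-fold to 2.09-fold, and Txnrd1 and Hspa5 were lower by 1.11-fold and 1.13-fold. The 4 higher genes had 95% intervals that overlapped each other in all pairs. The intervals of the 2 lower genes overlapped each other. Every listed gene has an interval that leaves out 0, so theirs could not meet those of the higher genes. The NRF2 targets stood on both sides of 0, and so did the chaperones.

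**Figure D1:**
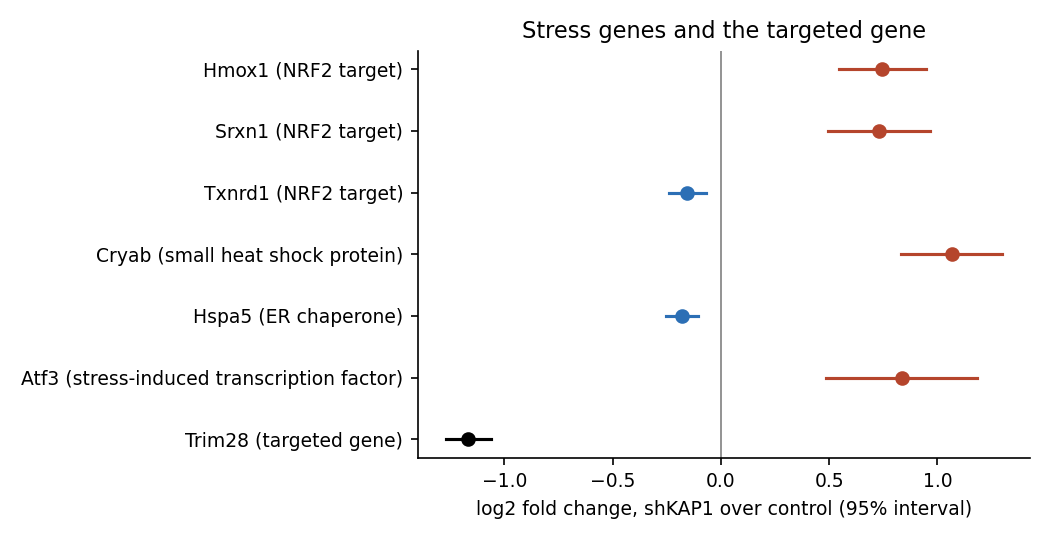
Log2 fold change of the 6 stress genes and of Trim28, shKAP1 over control, as points with 95% normal intervals as lines, from the authors' deposited table (red higher, blue lower, black the targeted gene). Hmox1, Srxn1, Cryab and Atf3 lie between 0.73 and 1.07, whereas Txnrd1 at -0.15 and Hspa5 at -0.18 lie just under 0.

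Hmox1 encodes heme oxygenase-1, which breaks heme down to biliverdin, carbon monoxide and iron. In the authors' deposited table it had a mean normalized count of 4121 and a log2 fold change of 0.75 ± 0.10 (DESeq2 adjusted p = 1.66e-11). This corresponds to 168% of the control level, with a 95% interval of 146% to 193%. Hmox1 ranked 103 by size of change among the 1621 higher genes. Its identifier is ENSMUSG00000005413.8, it lies on chromosome 8 at 75093621 to 75100589 on the plus strand of GRCm38, and no other annotated gene overlaps it.

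Srxn1 encodes sulfiredoxin, which returns over-oxidized peroxiredoxins to the active form. Its log2 fold change in the authors' deposited table was 0.73 ± 0.12 (DESeq2 adjusted p = 3.81e-08) at a mean normalized count of 3366. The level in shKAP1 was 166% of control, with an interval of 141% to 195%, and Srxn1 stood 3 ranks of size behind Hmox1, at 106. The difference between the log2 fold changes of Hmox1 and Srxn1 was 0.01, less than the SE of either. Srxn1 (ENSMUSG00000032802.8) lies on chromosome 2 at 152105516 to 152111376, plus strand, with no overlapping gene.

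Txnrd1 encodes the cytosolic thioredoxin reductase, a selenoprotein that uses NADPH to reduce thioredoxin. It was lower, at -0.15 ± 0.04 (DESeq2 adjusted p = 0.00352) with a mean normalized count of 24211 in the authors' deposited table. This left 89.8% of the control level, with an interval of 84.6% to 95.4%. Among the 1768 lower genes Txnrd1 ranked 1589 by size, so most lower genes changed by more, and it did not pass a Bonferroni limit. The median listed gene of like GC content was itself lower, at -0.15, and relative to it Txnrd1 stood at -0.0089. The log2 fold change of Hmox1 exceeded that of Txnrd1 by 0.90. Txnrd1 (ENSMUSG00000020250.10) spans chromosome 10 from 82833951 to 82897712, plus strand, and 3 annotated genes overlap it. One of them, the protein-coding gene Eid3, lies on the same strand. Overlap was taken from whole gene spans, and whether transcripts of the genes share sequence, and so reads, was not tested.

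Cryab encodes alpha-B crystallin, a small heat shock protein that holds unfolding proteins in solution without ATP and is abundant in lens, muscle and glia. It showed the largest change of the 6 genes, with a log2 fold change of 1.07 ± 0.12 (DESeq2 adjusted p = 6.36e-17) at a mean normalized count of 1127 in the authors' deposited table. Its level was 209% of control, with an interval of 178% to 246%. Cryab was the only one of the 6 past 2-fold and ranked 37 by size among higher genes. Cryab (ENSMUSG00000032060.10) lies on chromosome 9 at 50751325 to 50756636, plus strand, and overlaps its paralog Hspb2, which was not listed, on the opposite strand. Libraries were made with dUTP, which marks strand, but the sources used here do not say whether kallisto was run with a strand setting. Reads of any sequence shared by transcripts of both genes thus cannot be assigned with certainty. Cryab is also expressed in muscle and in oligodendrocytes. Of 8 mural cell and fibroblast markers 2 were listed (25%, against 26.3% of tested genes). Acta2 at 1.03 ± 0.24 and Tagln at 0.87 ± 0.22 were higher and 6 were not listed in the authors' deposited table. Of 9 oligodendrocyte lineage markers 3 were listed (33.3%). Mobp at 1.03 ± 0.24, Olig2 at 0.20 and Olig1 at 0.11 were higher and 6 were not listed in the authors' deposited table. Other genes of this lineage, outside the marker list and named after their values were seen, were lower: Bcas1 at -1.03 ± 0.11, Zfp488 at -0.78 ± 0.28, Enpp2 at -0.72 ± 0.17, Ugt8a at -0.63 ± 0.14 and Nkx6-2 at -0.41 ± 0.13 in the authors' deposited table. Acta2, Tagln and Mobp had mean normalized counts of 127.0 to 146.1, and the part of these cell types in the value of Cryab was not tested.

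Hspa5 encodes BiP, the HSP70 chaperone of the ER lumen, which also holds the ER stress sensors inactive. It was lower, at -0.18 ± 0.04 (DESeq2 adjusted p = 2.65e-05) with a mean normalized count of 36329 in the authors' deposited table. The level in shKAP1 was 88.2% of control, with an interval of 83.8% to 92.9%. By size Hspa5 ranked 1451 among 1768 lower genes. The median listed gene of like GC content was itself lower, at -0.19, and relative to it Hspa5 stood at 0.0054. Hspa5 (ENSMUSG00000026864.13) lies on chromosome 2 at 34771970 to 34777547, plus strand, with no overlapping gene.

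Atf3 encodes a bZIP transcription factor that many stresses induce within a short time, through ATF4 among other factors, and that also belongs to the immediate early genes. It had the lowest count of the 6 genes, 204.1, and the widest error, with a log2 fold change of 0.83 ± 0.18 (DESeq2 adjusted p = 3.65e-05) in the authors' deposited table. The level was 178% of control, and its interval ran from 140% to 227%. Atf3 ranked 75 by size among the higher genes but 877 by adjusted p among all listed genes. Atf3 (ENSMUSG00000026628.13) lies on chromosome 1 at 191170296 to 191218039, minus strand, and the short noncoding gene Gm24748 overlaps it on the other strand.

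How small a change could be listed depends on the SE, which tended to be larger at low counts but also differed between genes of like count. Among the 100 listed genes nearest to Atf3 in mean normalized count (151.4 to 276.9), the smallest change was 0.36 on the log2 scale in either direction and the median 0.61. No change as small as those of Hspa5 and Txnrd1 was listed among these 100. Among the 100 nearest to Txnrd1 (19088 to 30871) the smallest change was 0.07 and 27 were smaller than that of Txnrd1. All 100 genes nearest to Cryab and all 100 nearest to Srxn1 had smaller changes than these, as had 99 of those nearest to Hmox1, 83 of those nearest to Atf3 and 45 of those nearest to Hspa5.

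**Figure D2:**
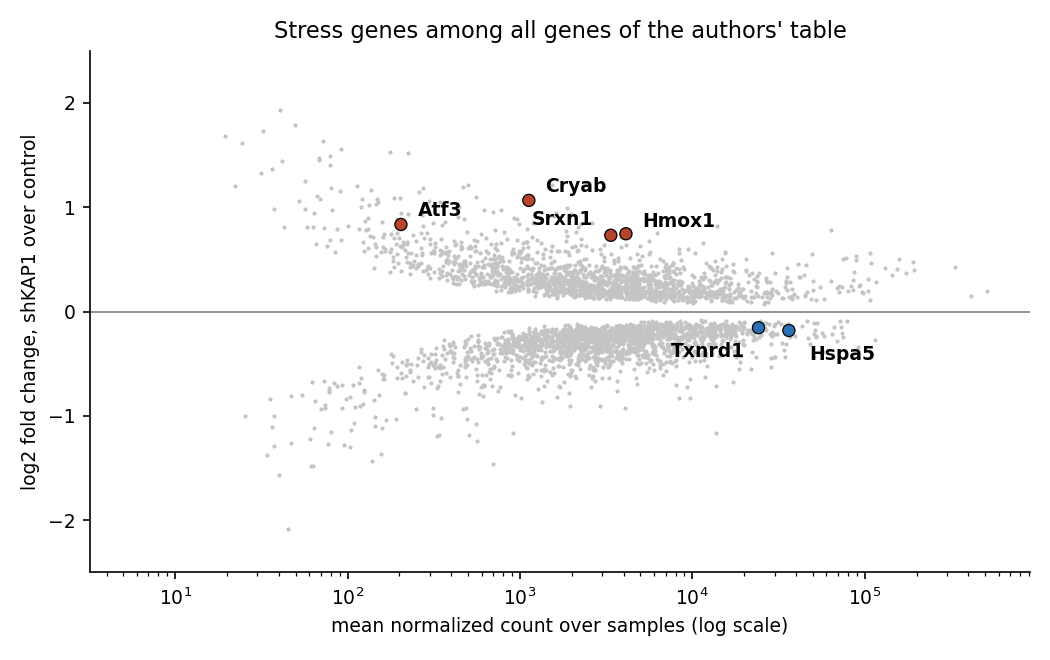
Each grey point is a gene of the authors' deposited table, with its mean normalized count over samples on a log axis and its log2 fold change, shKAP1 over control, on the vertical axis, which leaves out 5 genes beyond 2.5. Cryab at 1.07, Hmox1 at 0.75 and Srxn1 at 0.73 lie at the upper edge of genes of like count, and Txnrd1 and Hspa5 lie close to the empty band around 0 at high counts.

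The wider pathways were described with 8 gene lists of 198 genes in all, of which 53 were listed. Counts of listed members are set beside the 26.3% listed among all tested genes and a median log2 fold change of -0.13 over all listed genes. Of all listed genes 47.8% were higher, with a median of 0.29, and the lower ones had a median of -0.28. Of 34 NRF2 targets, 12 were listed (35.3%), 9 higher and 3 lower, and their median was 0.48 on the log2 scale. The largest change belonged to Slc7a11, the cystine importer that feeds glutathione synthesis, at 0.99 ± 0.12 in the authors' deposited table. Gstm1, a glutathione transferase, was at 0.82 ± 0.07 in the authors' deposited table, and its near-identical paralogs make the value uncertain. The ferritin chains, which store iron, were higher too, with Fth1 at 0.55 ± 0.08 and Ftl1 at 0.29 ± 0.07 in the authors' deposited table. Both have many processed pseudogenes, so their reads may be split and their values are uncertain. Gsta4, which conjugates lipid peroxidation products, stood at 0.40 ± 0.09 and G6pdx, the first enzyme of the pentose phosphate pathway, at 0.23 ± 0.06 in the authors' deposited table. Beside Txnrd1, the lower members were the export pump gene Abcc1 at -0.31 ± 0.10 and the autophagy receptor gene Sqstm1 at -0.19 ± 0.07 in the authors' deposited table. These 2 and the aldehyde oxidase gene Aox1, which was higher at 0.66 ± 0.20 in the authors' deposited table, were named after their values were seen, as they fall outside the 8 listed NRF2 targets of smallest adjusted p. The other 22 were not listed, among them the often used reporters Nqo1, Gclc and Gclm, which were singled out after the table was seen.

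Among 10 regulators of NRF2 or partners at its element, 1 was listed (10%). This was Bach1, a heme-binding repressor that occupies the same elements as NRF2 and for which Hmox1 is a known target. Bach1 was lower at -0.51 ± 0.06 (DESeq2 adjusted p = 1.68e-15) by the authors' deposited table, and its 95% interval was -0.63 to -0.40. The genes of NRF2 (Nfe2l2) and KEAP1 (Keap1) were not listed. The antioxidant core of Srxn1 and Txnrd1 was also searched in the windows of the other NRF2 targets. It was found for 2 of 7 higher genes with a window (Srxn1 and G6pdx), for 1 of 2 lower genes (Txnrd1) and for 10 of 19 that were not listed. Over all listed genes it was found for 17.3% of higher and 16.3% of lower genes with a window.

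Of 25 other antioxidant genes, 11 were listed (44.0%), 7 higher and 4 lower, with a median of 0.22 and a range of -0.46 to 0.47. Mt3, a metal-binding metallothionein of the brain, was at 0.47 ± 0.09, and the glutathione peroxidase genes Gpx1 at 0.39 ± 0.08, Gpx3 at 0.32 and Gpx4 at 0.23 followed it in the authors' deposited table. Txn2, the mitochondrial thioredoxin, was at 0.22 ± 0.05 in the authors' deposited table. The lower members included Sod1, the cytosolic superoxide dismutase, at -0.19 ± 0.04, and Msra, a methionine sulfoxide reductase, at -0.35 ± 0.08 in the authors' deposited table.

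Cryab was the 1 listed gene of 10 small heat shock proteins (10%). Of 25 genes of HSF1, HSF2 and the cytosolic and mitochondrial chaperones, 3 were listed (12%). Bag3, a cochaperone that works with small heat shock proteins, was higher at 0.44 ± 0.08, whereas the HSP90 cochaperone genes Stip1 at -0.16 ± 0.03 and Fkbp4 at -0.13 ± 0.05 were lower in the authors' deposited table. The other 22, which include the heat-inducible Hspa1a and Hspa1b, singled out after the table was seen, were not listed.

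Of 36 ER chaperones and genes of the unfolded protein response, 9 were listed (25.0%), 2 higher and 7 lower, with a median of -0.16 and a range of -0.30 to 0.15. Hspa13, an HSP70 relative of the ER, was lowest at -0.30 ± 0.05 in the authors' deposited table. Dnajb9 and Dnajc3, cochaperones of BiP, stood at -0.18 ± 0.06 and -0.12 ± 0.04 in the authors' deposited table. The ER stress sensor gene Atf6 at -0.16 ± 0.05 and Mbtps1, a protease that helps to release its active part, at -0.16 ± 0.05 were lower as well in the authors' deposited table. The higher members were the glycoprotein folding genes Pdia3 at 0.15 ± 0.04 and Calr at 0.12 ± 0.04 in the authors' deposited table. Hspa5 at -0.18 was the third lowest of the list in the authors' deposited table. No ER gene of the 9 had a 95% interval wholly beyond 1.2-fold, a limit that 631 listed genes passed (4.89% of all tested genes). Nothing is read from this absence in a list of 36 genes. Of the 34 NRF2 targets 6 passed, and of the 38 integrated stress response genes 7, all higher, with Slc7a11 counted in both.

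Of 38 genes of the integrated stress response, 14 were listed (36.8%), 12 higher and 2 lower, with a median of 0.42. Transcription factor genes were among the higher ones, with Cebpb at 1.05 ± 0.20 and Atf5 at 0.50 ± 0.05 beside Atf3 in the authors' deposited table. Chac1, which degrades glutathione and is a target of ATF4, was at 0.82 ± 0.17 in the authors' deposited table. The cationic amino acid transporter gene Slc7a3 stood at 0.84 ± 0.15 and Sesn2, a leucine-sensing sestrin that restrains mTORC1, at 0.51 ± 0.05 in the authors' deposited table. Ppp1r15a, the inducible subunit that directs dephosphorylation of eIF2 alpha, was higher at 0.34 ± 0.09, and its constitutive counterpart Ppp1r15b was lower at -0.15 ± 0.04 in the authors' deposited table. Ppp1r15b and the other lower gene, Vldlr at -0.24 ± 0.09, were named after their values were seen in the authors' deposited table. Atf4 itself and its targets Trib3 and Asns, singled out in the same way, were not listed. ATF4 is controlled largely by translation, which these data do not measure.

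**Figure D3:**
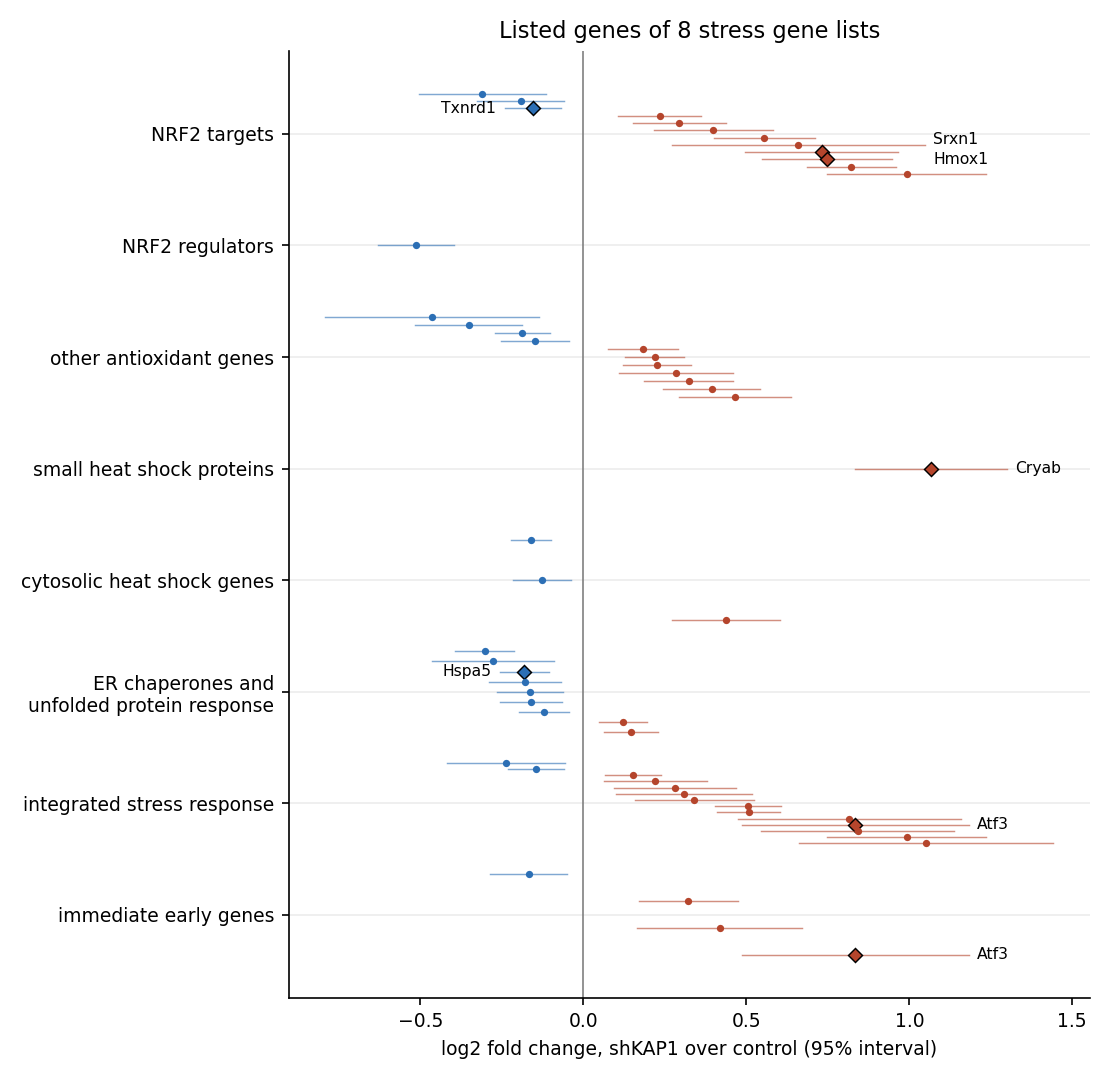
Every listed gene of the 8 stress gene lists, with its log2 fold change, shKAP1 over control, and 95% interval from the authors' deposited table (red higher, blue lower, diamonds the 6 stress genes; vertical offsets only separate genes). Integrated stress response genes reach from -0.24 to 1.05 with 12 above 0, and ER genes stay between -0.30 and 0.15 with 7 under 0.

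Of 22 immediate early genes 4 were listed (18.2%). Beside Atf3, Jun at 0.32 ± 0.08 and Junb at 0.42 ± 0.13, subunits of AP-1, were higher and Ier5 at -0.17 ± 0.06 lower in the authors' deposited table. No test of any list was made, and genes that stand on 2 lists, such as Slc7a11 and Atf3, count in both.

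**Figure D4:**
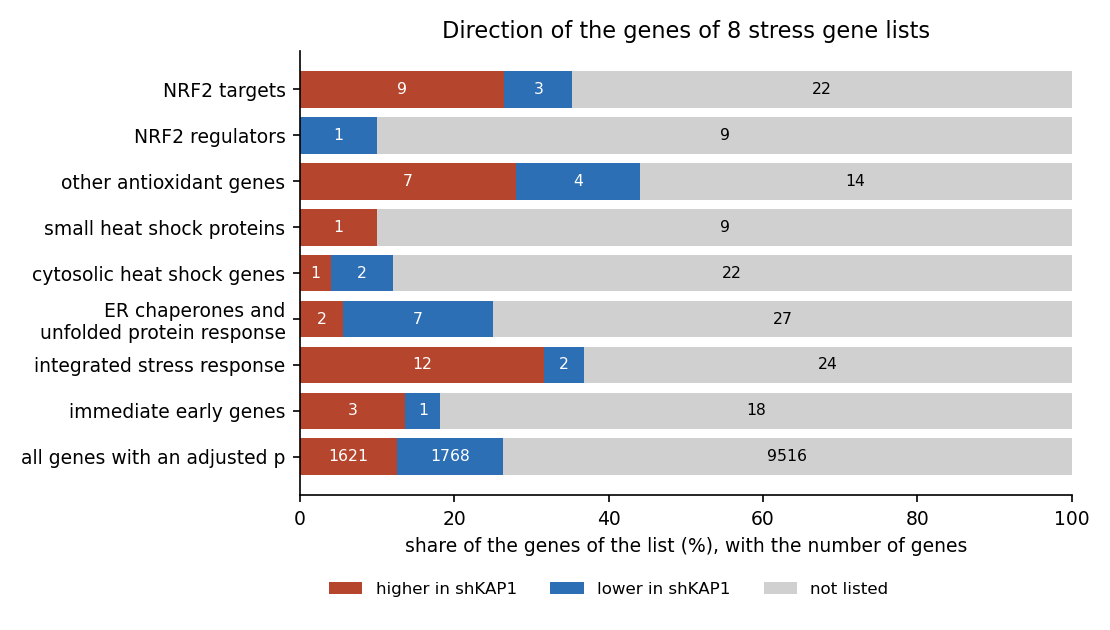
Share of each stress gene list that was higher (red), lower (blue) or not listed (grey) in shKAP1 against control, with the number of genes in each bar, and for comparison the same for the 12905 genes tested. Not listed genes of a list include any that were not tested. The integrated stress response list has 12 higher and 2 lower genes, and the ER list 2 higher and 7 lower.

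Base composition moved with direction in this table. When listed genes were divided into 5 equal bins by the GC content of their transcripts, 25.1% were higher in the bin of lowest GC and 70.1% in that of highest GC. Median GC content was 45.7% for the listed ER genes and 53.6% for those of the integrated stress response. Hspa5 had 46.4% GC and Txnrd1 50.1%, and the higher genes had 53.6% (Hmox1 and Cryab), 60.3% (Srxn1) and 50.9% (Atf3). Hmox1 and Cryab lie in the second highest bin, where the median listed gene stood at 0.19, and Hspa5 in the second lowest, where it stood at -0.19. Relative to the median of their bins the 4 higher genes stood at 0.50 (Srxn1) to 0.98 (Atf3), and the values of Txnrd1 and Hspa5 came within 0.01 of 0. The bin median of Txnrd1 and Atf3, which share a bin, was itself negative at -0.15, as was that of Hspa5 at -0.19. Bins hold listed genes only, which leave out changes near 0, so each median falls on the side with more genes. Slc7a11, at 0.99 in the authors' deposited table, has 41.9% GC and falls in the bin of lowest GC.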

How the data were processed

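RNA was sequenced from 4 shKAP1 and 3 control samples as poly(A)-selected, strand-marked libraries, per the labels' protocols. Groups follow the library names, which number the controls 1, 2 and 4, whereas their titles run from 1 to 3. Which libraries entered the authors' fit is not stated. Trim Galore 0.4.4, kallisto, DESeq2 and the build GRCm38 are named, without their order, in the submitters' processing notes. No other version, annotation or model is given there. Per the file headers, the authors deposited 1 comparison with the mean normalized count (a signal averaged over samples), the log2 fold change and its SE, a signed linear fold, the Wald statistic (a score) and the p-value with its Benjamini-Hochberg adjusted p-value. The signed fold repeats the log2 column within 0.1% in all 3389 lines. The number of tested genes, 12905, was recovered as adjusted p times rank over p, which gave it within 0.01 in 85.2% of lines. That step was tested on simulated p-values.

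Nothing was refitted. Intervals of 95% are log2 fold change ± normal quantile times SE, computed with Python 3.11.15, pandas 2.3.3 and scipy 1.17.1. Symbols, coordinates and GC content (median over transcripts) came from GENCODE M21, where 3388 of 3389 identifiers matched without their version and the 6 stress genes with it. One NRF2 target symbol (Trim16l) matched no annotated gene. The genes followed and the lists were chosen with earlier results of these data known. Beside the 6, the genes to be named were at most the 8 of smallest adjusted p among all listed genes of a list, any of the 6 included. Alternatives were stricter limits, centring on medians, leaving out shared list members and a shorter promoter window.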

Additional observations from a re-analysis of the deposited data

How the results depend on the processing

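No paired analysis was possible because values of single samples are not part of the table, and for the same reason other tools, filters and leaving out single replicates were not run. Every one of the 6 genes kept its call at an adjusted p under 0.01. At a Bonferroni limit Txnrd1, at -0.15, lost its call, while the other 5 kept theirs. Centring gives values with no test, relative to listed genes only. Minus the median of all listed genes (-0.13), Hmox1 stood at 0.87, Srxn1 at 0.86, Cryab at 1.19, Txnrd1 at -0.026 and Hspa5 at -0.053. Minus the median of its GC quintile, Hmox1 stood at 0.56, Srxn1 at 0.50, Cryab at 0.88, Txnrd1 at -0.0089 and Hspa5 at 0.0054. The quintile medians of Txnrd1 and Hspa5 were themselves negative, at -0.15 and -0.19. Values near 0 thus place these 2 genes near the median listed gene, and nothing is read from them about direction. Atf3 moved by less than its SE under both centrings. An interval beyond 1.2-fold was held by 631 listed genes (4.89% of tested genes). At this limit 6 NRF2 targets and 7 integrated stress response genes were left, Slc7a11 in both. So were 1 other antioxidant gene, 1 cytosolic heat shock gene and 1 immediate early gene (Atf3, also among the 7). All of these were higher. Bach1 and Cryab also passed, and 0 ER genes did. A change of 2-fold or more was reached by 82 listed genes (0.635% of tested genes). Among them were 1 integrated stress response gene (Cebpb) and Cryab, and 0 of the other lists. These limits keep fewer genes by construction. Counting only bases before the start, 1 of the 6 genes (Txnrd1) in place of 2 held the antioxidant core. The 6-base core, added after the data were seen, matched 2 genes where the full cyclic AMP response element matched 0. List totals at an adjusted p under 0.01, at a mean count of at least 100 and without shared members stayed within 1.5 times, as did the counts per direction under the last 2. At an adjusted p under 0.01 fewer genes of some lists were left. Lower genes were 2 in place of 4 for the other antioxidant genes and 2 in place of 3 for the NRF2 targets. They were 1 in place of 2 for both the integrated stress response and the cytosolic heat shock genes. The immediate early list held 0 lower genes in place of 1, and the ER list 5 in place of 7. Higher genes of the integrated stress response were 9 in place of 12, and those of the other lists stayed the same.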
